A study of Mus musculus with 6 samples.

Results

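The comparison of Ovol1 knockout with control keratinocytes used 4 of the 6 arrays of the series. These were the 2 arrays labelled Ovol1 KO and the 2 labelled Control, each KO array being set against the control array of the same replicate number. The series measured gene expression on Affymetrix whole-transcript arrays in keratinocytes, the epithelial cells of the epidermis, isolated from skin of C57BL/6 mice at E18.5, late in embryonic life. In every group the cells grew for 2 to 5 days, received calcium, which triggers keratinocyte differentiation, and grew for a further 3 to 5 days. Each array held RNA pooled from 2 mice. Control animals were either Ovol2flox/+ with Ovol1+/-, or Ovol2flox/+ with K14-Cre, a transgene whose keratin 14 promoter is active in basal keratinocytes, and the labels do not say which of these genotypes is on which control array. The Ovol1 KO animals were Ovol1-/-. The third group, the double knockout (DKO), was Ovol2flox/- with K14-Cre and Ovol1-/-, and its 2 arrays entered the model only through the shared estimate of spread. All groups carry a female label.

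Ovol1 encodes a zinc finger transcription factor that acts mostly as a repressor in epithelial cells. In the epidermis it is expressed as keratinocytes leave the basal layer, and its loss is known to affect the exit from the cell cycle and the later steps of differentiation. Differentiating keratinocytes first make the keratins of the spinous layer and then the proteins and lipids of the cornified envelope, the cross-linked shell of dead surface cells. Many envelope proteins are encoded side by side in the epidermal differentiation complex, which holds the loricrin, small proline-rich (Sprr), late cornified envelope (Lce) and S100 families.

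Values are log2(intensity + 16) after quantile normalization, and a matched difference is the KO array minus the control array of the same number, always given for replicate 1 first and replicate 2 second. No gene passed limma at an adjusted p below 0.05 among 19938 genes tested, so 0 were called higher and 0 lower (0% each way), and the smallest adjusted p was 0.9999. By the unadjusted p, 162 genes lay below 0.05, 43 of them higher and 119 lower in the KO arrays. The values given are therefore descriptions of 2 matched differences per gene. An exact two-sided sign-flip test on 2 pairs cannot go below p = 0.5.

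The sign of the difference was shared by the replicates in 54.1% of genes. Both differences were positive for 3095 genes (15.5%) and negative for 7685 (38.5%), while 9125 genes (45.8%) had opposite signs. The median over all genes was -0.11 in replicate 1 and -0.0034 in replicate 2, so lower values in the KO array made up 72.1% of genes in replicate 1 and 50.9% in replicate 2. A shift of at least 1.5-fold in the same direction in both replicates was reached by 48 genes, 15 higher (0.0752% of genes tested) and 33 lower (0.166%). With the values as deposited, without quantile normalization, the median was -0.02 in replicate 1 and -0.03 in replicate 2, and the higher genes made up 44.2% of the same-way genes instead of 31.2%. Another 30 genes (0.15%) passed 1.5-fold in both replicates with opposite signs. Across genes the matched differences of the replicates correlated at r = 0.0894, which is a description, as genes are not independent replicates.

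**Figure D1:**
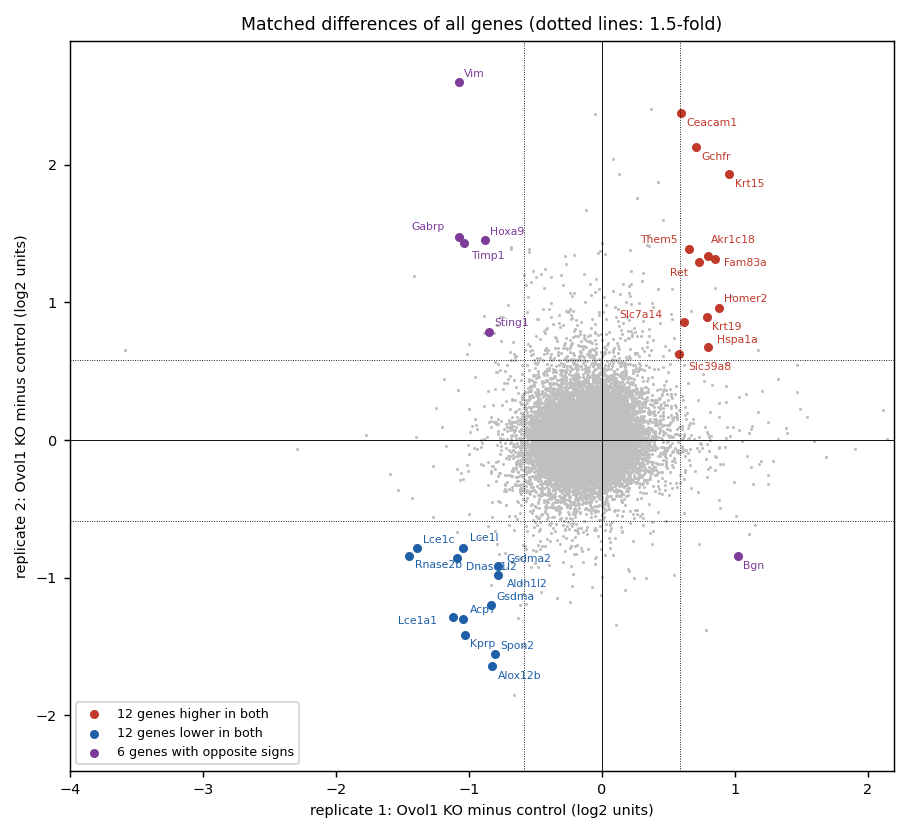
Each grey point is a gene, placed by its KO minus control difference (log2 units) in replicate 1 on the horizontal axis and in replicate 2 on the vertical axis. Of the coloured genes, 12 lie in the upper right, 12 in the lower left and 6 have opposite signs, and 6 genes, 4 of them sex-linked, lie outside the axes or are not drawn.

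Arrays of the same number were more alike than arrays of the same genotype, with Control 1 and KO 1 correlating at 0.9937 and Control 2 and KO 2 at 0.9917, against 0.9786 between the controls and 0.978 between the KO arrays. Sex-linked genes went against the female label on Control 1, Control 2 and KO 1. Xist, the noncoding RNA of X inactivation, stood at 4.71 and 4.65 in the controls, at 4.59 in KO 1 and at 11.97 in KO 2. The Y-linked gene Uty lay at 10.02, 10.08, 10.17 and 5.23 in the same order. The replicate 1 arrays were thus alike in these genes and the replicate 2 arrays were not, and in replicate 2 the sex of the pools and the genotype cannot be told apart. Without KO 1, limma called 4 genes, Xist higher and Eif2s3y, Kdm5d and Uty lower, all of them sex-linked. Of the keratins that define basal keratinocytes, Krt5 stood between 13.68 and 13.80 and Krt14 between 13.61 and 13.67 on the 4 arrays, near the top of the scale.

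The targeted gene was not lower in the arrays labelled Ovol1 KO. Ovol1 (probe set 10465106) stood at 10.27 and 9.85 in the controls and at 10.53 and 10.22 in the KO arrays. Its matched differences were 0.26 and 0.38, for a log2 fold change of 0.32 (SE 0.21, n = 2 arrays a group). Whether the probe set lies in the deleted part of the gene is not given in the sources used here, so its signal checks no label, and each array is called by its label throughout. The paralogue Ovol2 (probe set 10488256) stood at 8.12 and 8.82 in the controls and at 9.0 and 8.99 in the KO arrays. Ovol2 was thus above both controls in both KO arrays, with matched differences of 0.88 and 0.17 and a log2 fold change of 0.53 (SE 0.27).

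Among the 15 genes that were higher in both replicates were neighbouring type I keratins. Krt15 (probe set 10391025), a keratin of basal cells and of hair follicle stem cells, stood at 8.04 and 9.05 in the controls and at 9.0 and 10.98 in the KO arrays. Its matched differences were 0.96 and 1.93, but Control 2 lay above KO 1, so the groups overlapped. Krt19 (probe set 10391036), a keratin of simple epithelia and follicle progenitors, stood at 11.06 and 11.34 in the controls and at 11.85 and 12.24 in the KO arrays. Both KO arrays lay above both controls for Krt19, with matched differences of 0.79 and 0.89 and a log2 fold change of 0.84 (SE 0.82). That SE draws on the spread of every group and reflects mostly the DKO arrays. The SD of Krt19 was 2.08 in DKO, against 0.20 in the controls and 0.27 in KO. These keratins lie within 5 tested genes of each other on chromosome 11. Their probe sets read differently in the DKO arrays, at 13.04 and 12.16 for Krt15 and at 8.52 and 5.58 for Krt19.

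Ret, Fam83a and Homer2 were also higher in both replicates. Ret, a receptor tyrosine kinase of the glial cell line-derived neurotrophic factor family, stood at 8.52 and 7.95 in the controls and at 9.25 and 9.24 in the KO arrays, a log2 fold change of 1.01 (SE 0.23). Fam83a, whose product acts in epidermal growth factor receptor signalling, stood at 9.77 and 8.82 in the controls and at 10.62 and 10.14 in the KO arrays. For both genes the KO arrays lay above both controls. Homer2, a scaffold protein of synapses and calcium signalling, stood at 8.61 and 7.84 in the controls and at 9.49 and 8.80 in the KO arrays. A further probe set of Homer2 gave matched differences of 0.57 and 0.87.

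Enzymes, transporters and a chaperone followed. Them5, an acyl-CoA thioesterase, stood at 9.93 and 9.67 in the controls and at 10.58 and 11.06 in the KO arrays, a log2 fold change of 1.02 (SE 0.19). It stood higher still in the DKO arrays, at 13.32 and 13.20. Hspa1a, the inducible member of the Hsp70 chaperone family, stood at 10.35 and 10.03 in the controls and at 11.15 and 10.70 in the KO arrays. Hspa1a has the close copy Hspa1b, which the probe set may not separate. Gchfr, a regulator of tetrahydrobiopterin synthesis, stood at 8.77 and 7.05 in the controls and at 9.48 and 9.18 in the KO arrays. The matched differences of Gchfr, 0.71 and 2.13, were unequal, as Control 2 stood low while the KO arrays were close together. Slc7a14, a cationic amino acid transporter family member, had matched differences of 0.62 and 0.86. Slc39a8, a zinc importer, stood just outside the 1.5-fold limit at 0.58 and 0.62, with 11.12 and 10.92 in the controls and 11.70 and 11.55 in the KO arrays.

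Akr1c18 and Ceacam1 were higher in both replicates while their levels differed more by replicate than by genotype. Akr1c18, a steroid dehydrogenase that inactivates progesterone, stood at 11.09 and 8.60 in the controls and at 11.88 and 9.94 in the KO arrays. Ceacam1, a cell adhesion molecule, stood at 10.31 and 7.42 in the controls and at 10.91 and 9.79 in the KO arrays. In both genes Control 1 lay above KO 2. Ceacam1, at 0.60 in its smaller difference, was the last gene inside the 1.5-fold limit on the higher side. Of the 15 higher genes, 12 had both KO arrays above both controls, against 5.8% of all genes. The 15 were chosen by differences on the same 4 arrays, which favours such a gap, so this share is no separate support. The 4 members with no values given so far stood low on the scale or carry a predicted name. They were Naaladl2 (0.98 and 1.05), Clca4b (0.85 and 1.1), Tas2r143 (1.18 and 0.66) and Gm5039 (0.67 and 0.93), the pairs being matched differences.

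**Figure D2:**
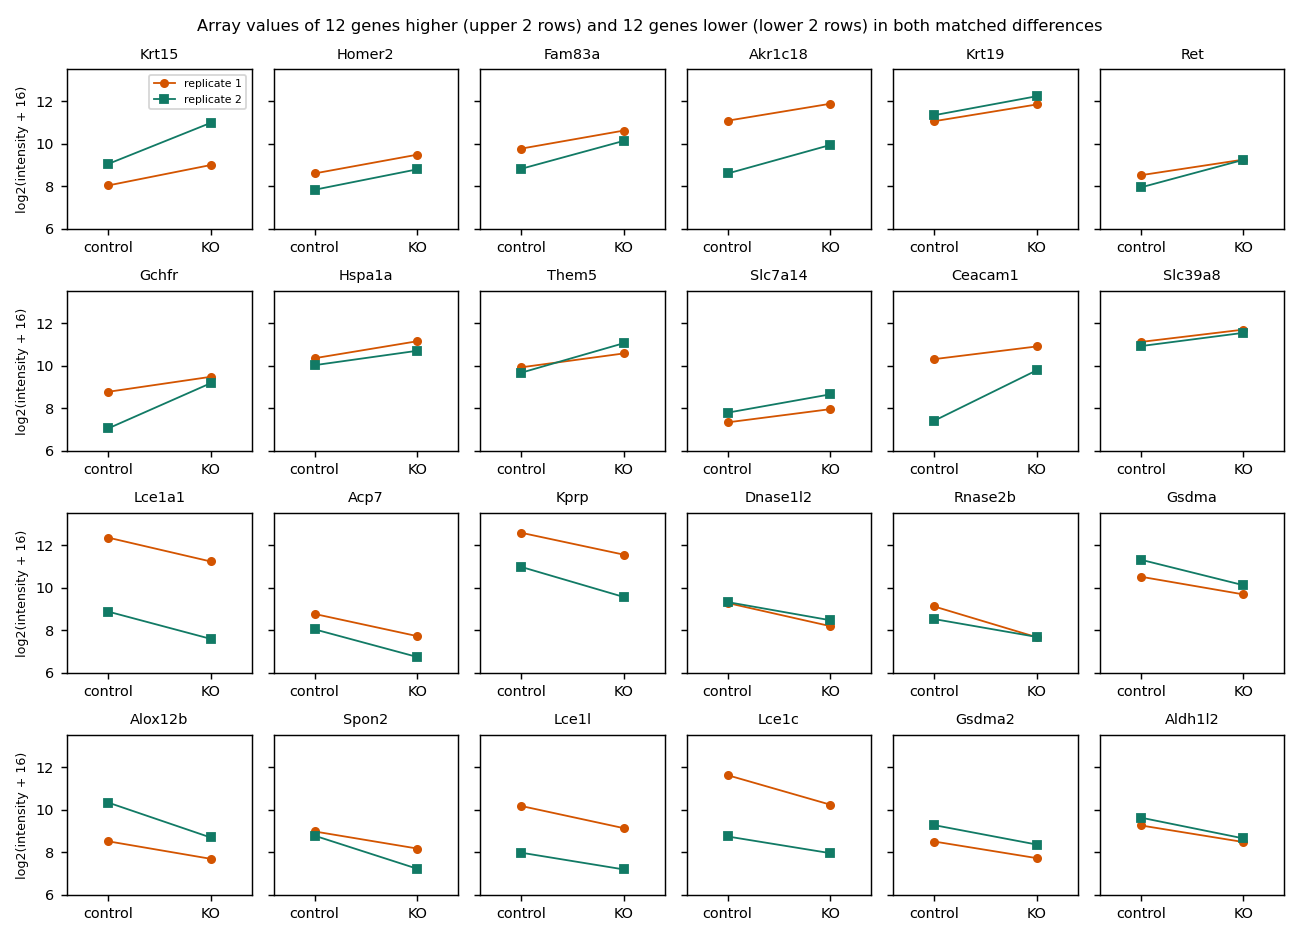
Each panel is a gene, with log2(intensity + 16) on the vertical axis and a line from the control to the KO array of each replicate (circles for replicate 1, squares for replicate 2). All lines slope up in the upper 12 panels and down in the lower 12, while the lines of Lce1a1, Lce1c, Akr1c18 and Ceacam1 stand far apart.

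Of the 33 lower genes, 8 were on the cornified envelope list. Lce1a1 (probe set 10499911), a late cornified envelope protein, stood at 12.36 and 8.88 in the controls and at 11.24 and 7.60 in the KO arrays. Its matched differences were -1.12 and -1.28, yet the replicates of a group differed by more than 3 log2 units and KO 1 lay above Control 2. Kprp (probe set 10499941), the keratinocyte proline-rich protein, stood at 12.58 and 10.98 in the controls and at 11.56 and 9.57 in the KO arrays. Acp7, an acid phosphatase, stood at 8.77 and 8.04 in the controls and at 7.72 and 6.74 in the KO arrays. Lce1a1, Kprp and Acp7 were the 3 genes with a shift of at least 2-fold in both replicates, whereas 0 genes were higher by that much.

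Dnase1l2, Alox12b and a pair of gasdermin genes were lower in both replicates as well. Dnase1l2, the nuclease that degrades nuclear DNA during cornification, stood at 9.28 and 9.32 in the controls and at 8.19 and 8.47 in the KO arrays, a log2 fold change of -0.97 (SE 0.20). Its controls agreed within 0.1 and both KO arrays lay below them. Alox12b, the lipoxygenase that builds the lipid envelope, stood at 8.52 and 10.34 in the controls and at 7.69 and 8.69 in the KO arrays. For Alox12b the groups overlapped, and the matched differences were -0.82 and -1.64. Gsdma, a gasdermin of the pore-forming family expressed in differentiated epidermis and hair follicle, stood at 10.52 and 11.32 in the controls and at 9.69 and 10.12 in the KO arrays. Its neighbour and paralogue Gsdma2 stood at 8.50 and 9.27 in the controls and at 7.72 and 8.36 in the KO arrays. For both gasdermins the KO arrays lay below the controls, and shared signal between these close copies was not tested.

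The other lower genes named by the rule had various roles. Rnase2b, a ribonuclease of the eosinophil-associated family, stood at 9.12 and 8.53 in the controls and at 7.67 and 7.69 in the KO arrays. Spon2, a secreted matrix protein, stood at 8.98 and 8.78 in the controls and at 8.17 and 7.22 in the KO arrays. Both genes had the KO arrays below both controls, and so did Aldh1l2, a mitochondrial enzyme of folate metabolism, at 9.26 and 9.63 in the controls against 8.48 and 8.65 in the KO arrays. Lce1l had matched differences of -1.04 and -0.79. Lce1c had -1.39 and -0.78. Of the 33 lower genes, 18 had both KO arrays below both controls, against 18.3% of all genes. As on the higher side, the choice of these genes favours such a gap, so this share is no separate support.

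The remaining lower members were grouped by function after their values were seen. Actg2 and Myl9, which encode a smooth muscle actin and a regulatory myosin light chain, had matched differences of -0.92 and -0.71, and of -0.77 and -0.83. Their controls lay at 9.58 and 8.73 for Actg2 and at 11.32 and 10.46 for Myl9. The dopamine transporter gene Slc6a3 and the arginine transporter gene Slc7a3 had differences of -0.60 and -0.85, and of -0.61 and -1.20, and Slc7a3 is X-linked. The ATP-gated channel gene P2rx2 stood at 11.41 and 11.10 in the controls and at 10.74 and 10.21 in the KO arrays. Csf3, a growth factor of granulocytes that lies within 5 tested genes of the gasdermin pair, had -1.09 and -0.67. Wnt7a, a Wnt ligand, had -0.59 and -1.12. Prokr2, a G protein-coupled receptor for prokineticins, had -0.73 and -0.82, and Ly6m, a member of the Ly6 surface protein family, had -0.71 and -0.93. Ddah1, which degrades asymmetric dimethylarginine, had -0.66 and -0.66. Rtkn2 (-0.83 and -1.05), Car6 (-0.79 and -0.76), Lgi2 (-0.63 and -1.29) and Ocel1 (-0.59 and -0.76) were the others outside the envelope and stress genes. Sprr2e, at -0.59 in its smaller difference, was the last gene inside the limit on the lower side, and Moxd1, at -0.58, was the first outside it.

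Position in the genome was shared by some members. Of the 48 same-way genes, 14 lay in 4 groups of members no more than 5 tested genes apart. A run of 7 on chromosome 3 held Lce1a1, Lce1c, Lce1f, Lce1h, Lce1j, Kprp and Lce1l, and a pair on the same chromosome was Sprr2e and Sprr2i. The others were Krt15 with Krt19, and Gsdma2 with Gsdma and Csf3, both on chromosome 11. Within each group the members went the same way.

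In the epidermal differentiation complex, the Lce1 genes were lower almost throughout. Of 13 Lce1 genes 12 were lower in both replicates, against 38.5% of all genes, and 6 of them by at least 1.5-fold. The family median was -1.04 in replicate 1 and -0.42 in replicate 2, with matched differences ranging from -1.53 to -0.48 and from -1.28 to 0.02. In 0 of the 13 did the KO arrays both lie below the controls, and Control 1 stood a median of 2.80 above Control 2 and KO 1 a median of 2.28 above KO 2. The genotype difference in this family was thus smaller than the spread between replicates of one group. Lce1h, for example, stood at 12.50 and 9.30 in the controls and at 11.80 and 8.69 in the KO arrays. Lce1 genes are close copies whose probe sets may share signal, so they are not independent, and the family was set out after the values were seen.

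The Sprr genes, which encode cross-linked envelope precursors, were lower in both replicates for 8 of 13, against 38.5% of all genes. Their medians were -0.22 and -0.35. Sprr2i stood at 10.82 and 11.88 in the controls and at 10.16 and 10.03 in the KO arrays. Sprr2e stood at 11.97 and 11.69 in the controls and at 11.38 and 10.19 in the KO arrays. For both genes the KO arrays lay below both controls, and the difference was larger in replicate 2. Other families of the complex did not share a direction. Of 5 Lce3 genes 2 were lower in both, and of 14 S100 genes 2 were lower, 3 higher and 9 opposite. Of 6 fused S100 genes, the filaggrin relatives, 3 were lower in both replicates, among them Hrnr at -0.29 and -0.88. Loricrin (Lor), the most abundant envelope protein, had 0.44 and -0.09, and involucrin (Ivl), an early scaffold of the envelope, had -0.05 and -0.86.

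**Figure D3:**
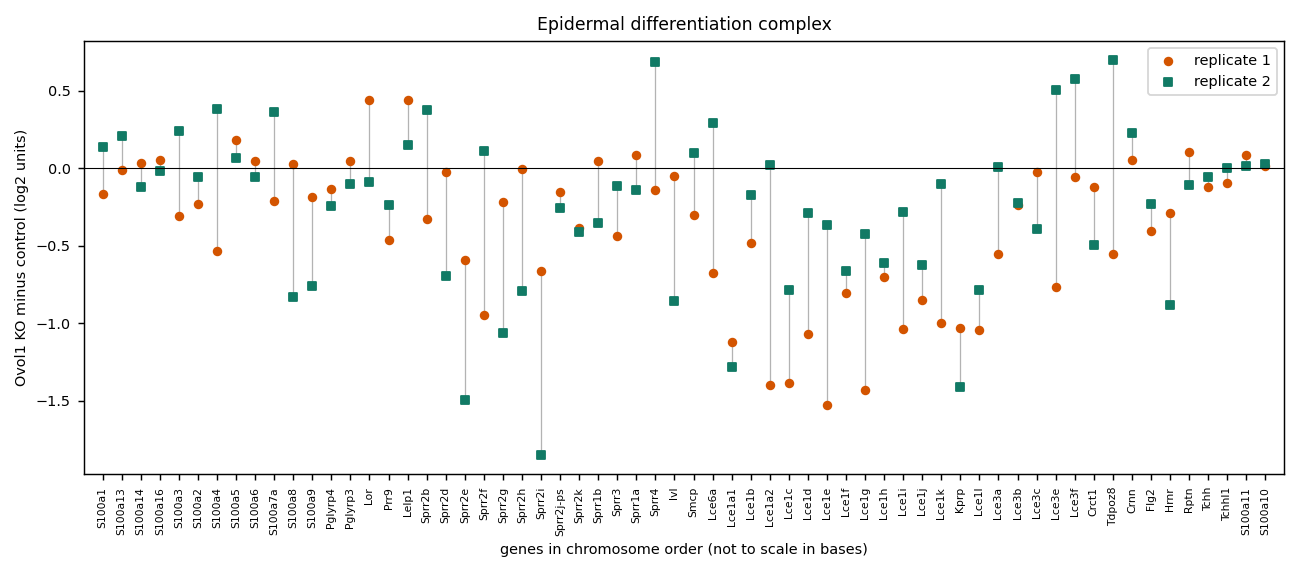
Genes of the epidermal differentiation complex are placed in chromosome order on the horizontal axis, evenly spaced, with their KO minus control difference (log2 units) in replicate 1 (circles) and replicate 2 (squares) on the vertical axis. The run of Lce1 genes lies below 0 in both replicates with 1 exception in replicate 2, and the S100 genes at both ends scatter around 0.

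The cornified envelope list, which holds most of these genes, had 26 of 44 measured members lower in both replicates and 1 higher. That is 59.1% lower, against 38.5% of all genes, and 2.27% higher, against 15.5%. The median of the mean difference was -0.32, against -0.06 over all genes. Of the members, 8 were lower by at least 1.5-fold, 9 had the KO arrays below both controls, against 18.3% of all genes, and limma called 0. The transglutaminase genes Tgm1 and Tgm5, whose enzymes cross-link the envelope, had differences of -0.23 and -0.15, and of -0.26 and -0.47. Tgm3 had -0.25 and 0.02. The summed intensity of the list was 118021 and 79782 in the controls and 94744 and 60988 in the KO arrays, so Control 2 lay below KO 1. These are bulk samples, in which fewer differentiated cells and less RNA per cell cannot be told apart.

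Other differentiation lists had medians nearer 0. Of 22 barrier lipid genes, which make and transport the lipids between surface cells, 11 were lower in both replicates and 4 higher, with a median of -0.18. That is 50% lower and 18.2% higher, against 38.5% and 15.5% of all genes. Acer1, a ceramidase, stood at 7.63 and 8.12 in the controls and at 6.91 and 7.64 in the KO arrays. Lipn, an epidermal lipase, went the other way, at 7.40 and 8.93 in the controls and at 8.72 and 9.37 in the KO arrays. Of 11 spinous layer genes 3 were higher in both and 2 lower. The spinous keratins had matched differences of -0.51 and -0.06 for Krt1 and of -0.49 and 0.59 for Krt10, and Krt77 had -0.49 and -0.16. Krtdap, a secreted protein of spinous cells, had 0.08 and 0.12, and Notch3, a receptor that drives spinous fate, had 0.17 and 0.22. Of 16 basal layer genes 6 were higher in both and 5 lower. Igfbp2, which binds insulin-like growth factors, stood at 11.82 and 12.0048 in the controls and at 11.20 and 11.47 in the KO arrays. Itgb1, the integrin beta 1 chain that holds basal cells to the basement membrane, had -0.24 and -0.24.

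The unfolded protein and integrated stress list was lower almost as a whole. Of 21 genes 18 (85.7%) were lower in both replicates and 0 were higher, against 38.5% and 15.5% of all genes. The list medians were -0.21 and -0.22, against -0.11 and -0.0034 over all genes. This list holds chaperones of the endoplasmic reticulum and the genes that the transcription factor ATF4 switches on when protein synthesis is held back. Chac1 (probe set 10474972), which degrades glutathione, stood at 11.70 and 11.72 in the controls and at 11.09 and 10.86 in the KO arrays. Its controls differed by 0.02 and its matched differences were -0.61 and -0.85. Trib3, a pseudokinase induced by this response, stood at 9.76 and 10.97 in the controls and at 9.15 and 9.94 in the KO arrays. For Trib3, Control 1 lay below KO 2. Vldlr, a lipoprotein receptor, had -0.34 and -0.72.

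Most genes of the stress list shifted by less than 1.5-fold. Herpud1, part of the machinery that removes misfolded proteins, stood at 11.56 and 12.11 in the controls and at 11.28 and 11.80 in the KO arrays. Hspa5, the main chaperone of the endoplasmic reticulum, had differences of -0.19 and -0.25. The asparagine synthetase gene Asns had -0.29 and -0.28, Atf4 itself -0.08 and -0.21, and the stress-induced factor gene Ddit3 -0.24 and -1.17. Only 3 of the 21 had the KO arrays below both controls, against 18.3% of all genes. The summed intensity was 56702 and 79157 in the controls and 49797 and 66999 in the KO arrays.

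Promoters were read from RefSeq (assembly GRCm38.p6) as the 250 bases before the gene start, and 30 of the 48 same-way genes had an entry. Each was searched on both strands for CCGTTA, a core recognised by Ovol1, for TGATGNAA, the composite element bound by ATF4, and for TGANTCA, the AP-1 element. The CCGTTA letters were in 2.48% of the 19177 promoters of genes tested, and in 2.18% of all 32851 promoters. They were in 0 of 10 promoters of the higher genes and in 0 of 21 of the lower genes. At a share of 2.48%, 0 is the likely count in sets this small, so no conclusion is drawn from it. TGATGNAA was in 2.68% of promoters of genes tested (3.45% of all promoters) and in 5 of 23 promoters (21.7%) of the stress list. That list holds genes that ATF4 switches on, which favours the element, so its share is no separate support. The element was in 0 of 10 promoters of the higher genes and in 1 of 21 (4.76%) of the lower genes. TGANTCA was in 6.04% of promoters of genes tested (6.75% of all promoters). It was in 15 of 40 (37.5%) of the cornified envelope list, whose members stand side by side and are related in sequence. Among the same-way genes it was in 0 of 10 promoters of the higher genes and in 2 of 21 (9.52%) of the lower genes. A match describes the letters in this window and was not tested for binding. The promoters of Chac1 (chr2:119350992-119351241, plus strand) and Herpud1 (chr8:94386179-94386428, plus strand) are shown as lower genes of the stress list with the ATF4 element, which is in capitals and here reads on the minus strand. Those of Sprr2e (chr3:92351893-92352142, plus strand) and Sprr2i (chr3:92407741-92407990, plus strand) are shown as the lower pair in which the AP-1 element, in capitals, stood at the same distance from the start, -193 to -187.
Chac1: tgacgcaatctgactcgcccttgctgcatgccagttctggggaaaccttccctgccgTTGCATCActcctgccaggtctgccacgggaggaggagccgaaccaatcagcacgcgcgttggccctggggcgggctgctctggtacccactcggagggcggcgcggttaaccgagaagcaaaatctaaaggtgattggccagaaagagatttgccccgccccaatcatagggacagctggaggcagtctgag
Herpud1: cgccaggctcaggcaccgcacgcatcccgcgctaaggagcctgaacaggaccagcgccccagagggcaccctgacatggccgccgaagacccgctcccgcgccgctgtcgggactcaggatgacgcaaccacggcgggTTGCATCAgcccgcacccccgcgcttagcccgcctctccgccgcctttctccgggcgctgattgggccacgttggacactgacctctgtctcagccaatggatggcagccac
Sprr2e: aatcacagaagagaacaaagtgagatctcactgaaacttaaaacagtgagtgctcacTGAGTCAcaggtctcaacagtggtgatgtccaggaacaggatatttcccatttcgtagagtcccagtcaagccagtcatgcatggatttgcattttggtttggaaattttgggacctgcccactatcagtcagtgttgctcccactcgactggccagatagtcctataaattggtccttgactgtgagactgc
Sprr2i: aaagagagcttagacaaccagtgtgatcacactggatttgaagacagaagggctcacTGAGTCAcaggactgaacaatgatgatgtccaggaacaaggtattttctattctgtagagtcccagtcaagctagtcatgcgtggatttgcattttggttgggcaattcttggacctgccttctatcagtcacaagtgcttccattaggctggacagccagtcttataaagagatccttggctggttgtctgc
Counted from the gene start, the element began at -193 in Chac1 and at -112 in Herpud1. The Sprr2e and Sprr2i promoters had the same base at 177 of 250 positions, or 70.8%, without gaps.

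Cell cycle genes leaned the other way. Of 38 genes 26 (68.4%) were higher in both replicates and 4 were lower, against 15.5% and 38.5% of all genes, with medians of 0.11 and 0.18. The shifts were small, and 0 of the 38 reached 1.5-fold in both replicates. Cdk2, a kinase of the G1 to S transition, stood at 9.69 and 9.42 in the controls and at 9.98 and 9.94 in the KO arrays. Mcm6, a subunit of the replicative helicase, stood at 9.76 and 9.82 in the controls and at 10.02 and 10.32 in the KO arrays. For both genes the KO arrays lay above both controls, as they did for 9 of the 38, against 5.8% of all genes. Mcm3, another helicase subunit, had differences of 0.20 and 0.46, and Birc5, a mitotic survival factor, had 0.28 and 0.27. Mki67, the proliferation antigen, had 0.57 and 0.17, while E2f1, a transcription factor of S phase, had -0.29 and -0.02. Ccnd1, the G1 cyclin, had -0.0026 and -0.22.

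Genes of the growth arrest and Myc list did not share a direction, with 6 of 24 higher in both replicates and 7 lower. The arrest and Myc parts of the list were not counted apart. Gadd45a, induced by DNA damage and stress, stood at 9.85 and 10.95 in the controls and at 9.37 and 10.19 in the KO arrays. Cdkn1c, an inhibitor of cyclin-dependent kinases, stood at 8.99 and 8.90 in the controls and at 8.74 and 8.48 in the KO arrays. Both KO arrays lay below both controls for Cdkn1c. Rbl1, a pocket protein related to the retinoblastoma protein, had differences of 0.35 and 0.24, and Cdkn2b, another kinase inhibitor, had -0.21 and -0.24.

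**Figure D4:**
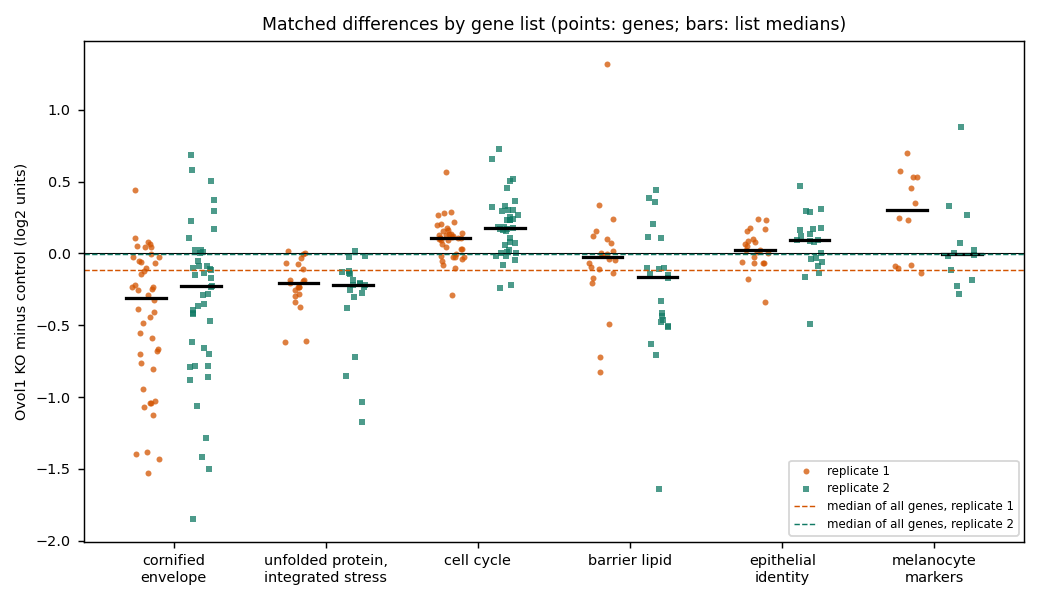
Points are genes of 6 lists, placed by their KO minus control difference (log2 units) in replicate 1 (circles) and replicate 2 (squares); black bars are list medians and dashed lines the medians of all genes, -0.11 and -0.0034. Both bars lie below these lines for the envelope and stress lists and above them for cell cycle genes.

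Epithelial identity genes, which keep cells joined and polarised, were higher in both replicates for 12 of 21 and lower for 5, with a median of 0.06. That is 57.1% higher and 23.8% lower, against 15.5% and 38.5% of all genes. With the values as deposited, 8 (38.1%) were higher in both, against 21.5% of all genes. Esrp2, a splicing factor of epithelial cells, had differences of 0.18 and 0.17, and Marveld3, a tight junction protein, had 0.16 and 0.16. Cldn7, a claudin, had -0.18 and -0.17, and Prss8, a membrane protease, stood at 12.47 and 12.09 in the controls and at 12.13 and 11.60 in the KO arrays. Of 8 simple and mucosal keratins 4 were lower in both, and 1, Krt19, was higher. Krt7 had -0.53 and -0.22, Krt8 had -0.21 and -0.28, and Krt23 had -0.32 and -0.30.

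Of 25 Wnt pathway genes 14 (56%) were lower in both replicates and 4 (16%) higher, against 38.5% and 15.5% of all genes. Besides Wnt7a, the ligand gene Wnt11 stood at 9.32 and 10.10 in the controls and at 9.01 and 9.53 in the KO arrays. Dkk3, a secreted relative of Wnt inhibitors, had differences of -0.27 and -0.39. Axin2, a feedback target of the pathway, went the other way at 0.28 and 0.99. Of 29 wound and stress genes 7 (24.1%) were higher in both and 11 (37.9%) lower, the latter close to the 38.5% of all genes. Lcn2, an antimicrobial iron-binding protein, stood at 11.66 and 11.66 in the controls and at 11.30 and 11.35 in the KO arrays. The chemokine gene Cxcl5 had -0.63 and -0.45, and the defensin gene Defb14 had 0.31 and 0.46. Stfa3, a stefin that inhibits cysteine proteases and has close copies, stood at 8.33 and 7.76 in the controls and at 8.70 and 10.16 in the KO arrays.

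Genes with opposite shifts of at least 1.5-fold numbered 30, and 25 of them were lower in replicate 1 and higher in replicate 2. Vim, the intermediate filament of mesenchymal cells, stood at 11.9985 and 9.19 in the controls and at 10.92 and 11.78 in the KO arrays. Its matched differences of -1.07 and 2.60 came with controls that lay further apart than the KO arrays. Timp1, an inhibitor of matrix proteases, stood at 9.48 and 7.04 in the controls and at 8.44 and 8.47 in the KO arrays. Hoxa9, a homeobox factor, stood at 9.16 and 7.08, against 8.28 and 8.53. Sting1, an adaptor of the innate response to DNA, stood at 9.39 and 7.81, against 8.54 and 8.60, and Gabrp, a chloride channel subunit, at 11.0026 and 7.10, against 9.93 and 8.58. In each of these 5 genes Control 1 was the highest and Control 2 the lowest of the 4 arrays. Bgn, a matrix proteoglycan on the X chromosome, went the other way at 1.02 and -0.84. Zeb1, a repressor of epithelial genes, chosen after its values were seen, stood at 8.04 and 6.01 in the controls and at 6.63 and 7.2 in the KO arrays.

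The replicates also went apart for genes responsive to interferon. Of 20 measured, 15 had opposite signs, against 45.8% of all genes, with medians of -0.21 in replicate 1 and 0.31 in replicate 2. Oasl2, an interferon-induced synthetase-like protein, had -0.27 and 1.33, and Usp18, which restrains the response, had -0.27 and 0.94.

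Markers of other cell types were summed as intensities on each array. For the counts beside the sums, 15.5% of all genes were higher and 38.5% lower in both replicates. The 12 melanocyte markers summed to an intensity of 9127 and 2536 in the controls and to 10547 and 2623 in the KO arrays, with 5 higher in both replicates and 3 lower. This sum differed more by replicate than by genotype. Kit, a receptor of melanocytes and mast cells, stood at 8.07 and 7.70 in the controls and at 8.60 and 8.58 in the KO arrays. Both KO arrays lay above both controls for Kit, as for no other marker of this list. Pmel, a pigment granule protein, stood at 9.37 and 5.80 in the controls and at 9.82 and 6.13 in the KO arrays. Oca2, another of these markers, went the other way, with matched differences of -0.10 and -0.12. The 18 fibroblast markers summed to 4436 and 3659 in the controls and to 4344 and 3341 in the KO arrays, and 2 were higher in both and 5 lower. The 14 macrophage and Langerhans cell markers summed to 4866 and 7242 in the controls and to 4013 and 6370 in the KO arrays, with 1 higher and 7 lower. The 6 Schwann cell and nerve markers summed to 3264 and 3156 in the controls and to 3013 and 2910 in the KO arrays, with 0 higher and 5 lower, and here the KO arrays lay below both controls. The 12 T cell and mast cell markers summed to 987 and 1042, against 815 and 989, with 2 higher and 8 lower. The 10 skeletal muscle markers summed to 3107 and 3334, against 2636 and 3030, with 2 higher and 4 lower. The 10 endothelial markers summed to 2650 and 1602, against 2107 and 1576, with 0 higher and 4 lower. Of 9 adipocyte markers 3 were lower in both replicates, of 7 Merkel cell markers 4 and of 3 erythroid markers 1, and 0 members of these lists were higher in both. The part of such cells in the gene groups above was not tested.

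The DKO arrays were compared with the same controls, so these values are set side by side without a test. The sex-linked list summed to an intensity of 42251 and 37494 in the controls and to 4640 and 5124 in the DKO arrays. The sex of the pools and the DKO genotype therefore cannot be told apart. Against the control mean, the mean of the DKO arrays differed by 4.06 for Krt15, by 3.46 for Them5 and by 1.49 for Fam83a, which were also higher in the KO arrays. It differed by -4.15 for Krt19, by -3.20 for Akr1c18, by -2.19 for Ceacam1 and by -1.29 for Ret, all of them higher in the KO arrays. Among lower genes it differed by -2.55 for Kprp and by -1.37 for Acp7, but by 1.43 for Alox12b, 0.05 for Gsdma and -0.22 for Dnase1l2. The DKO replicates lay apart for Lce1a1, at 7.81 and 11.36, with the order of the replicates turned against the other groups. The median of the unfolded protein and integrated stress list in DKO was -0.29 against the controls, and that of the cornified envelope list -0.27. Falls of this size were not particular to these lists. The DKO median was -0.28 for wound and stress genes and -1.15 for epithelial identity genes, but 0.21 for cell cycle and 0.18 for Wnt genes.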

How the data were processed

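Expression was measured on 6 arrays. The deposited values are linear intensities, 1 per probe set and array, summarised by the authors; PLIER 2.0 and Affymetrix Expression Console 1.1.1 are listed, per the submitters' processing notes, without their roles, and normalization is not given in the sources used here. Median intensities ran from 174.2 to 203.6 over 35556 probe sets. The table has no detection call, and the number of arrays limits the precision.

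To each intensity 16 was added before log2 and quantile normalization, which understates shifts of dim genes. Probe sets with 1 symbol gave 19938 genes, each by its brightest probe set. limma 3.58.1 in R 4.3.3 used all 6 arrays, a variance trend and Benjamini-Hochberg adjustment. The procedure was run on simulated data with independent noise on each array. The simulation lacks the deviations shared by same-numbered control and KO arrays, so it is no check of the same-way counts. P-values measure the spread between pools of mice. Named genes were Ovol1, Ovol2, the 12 higher and 12 lower genes with the largest smaller matched difference of shared sign, 6 of opposite sign, all above a median level and without predicted genes, olfactory receptors and sex-linked genes, and up to 4 members of each of 12 described lists. Other genes with values were chosen after these were seen. The members and the 39 gene lists were chosen with earlier results of these data known. The closing section gives the alternatives, which include offsets of 1 and 64.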

Additional observations from a re-analysis of the deposited data

Results flagged for a closer look

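Probe sets annotated to several genes were left out of the comparison. Among these 1621 probe sets, 1 was higher and 0 were lower by at least 1.5-fold in both matched differences, and 2 passed that size with opposite signs.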

How the results depend on the processing

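With other offsets, the values as deposited, the dimmest 30% of genes left out, the mean over probe sets, no variance trend, or only the 4 arrays, limma again called 0 genes each way. With single arrays left out it called 0 to 1 higher and 0 to 3 lower, the 4 calls being the sex-linked genes without KO 1. The labels give the replicate numbers no shared litter or day, and deviations of same-numbered control and KO arrays correlated at 0.6872, against 0.1513 for control with DKO and 0.0875 for KO with DKO. A fit with the replicate number as a block called 0 genes over all 6 arrays, but 48 higher and 85 lower over the 4 arrays alone, 133 genes of which 130 went the same way in both replicates and 47 were among the 48 at 1.5-fold. That fit has 1 residual degree of freedom, the disagreement of the matched differences, with 19.8 prior degrees of freedom. Such a fit favours genes with large and similar matched differences, as the same-way rule does. The overlap is therefore no separate support for the 48 genes.

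The count of genes at 1.5-fold in both replicates was 58 lower with an offset of 1, 23 higher with the values as deposited, and 25 higher with normalization over named genes alone, which was added after the data were seen. With an offset of 64, which shrinks the shifts of dim genes further, it was 10 higher and 22 lower. At 2-fold it was 0 higher and 3 lower, and with a gap of 1.5-fold between non-overlapping groups 4 higher and 11 lower. With an array left out only the matched difference of the other replicate remains, and 512 genes passed 1.5-fold in either direction in replicate 1 alone and 491 in replicate 2 alone. The counts of these lists held under the alternatives run: cornified envelope lower in 24 to 28 genes, unfolded protein and integrated stress lower in 16 to 18, cell cycle higher in 26 to 29. In 1 replicate alone they were 32 to 37, 19 to 20 and 28 to 31. The shares of all genes moved, from 15.5% higher and 38.5% lower to 21.5% and 32.2% with the values as deposited. With normalization over named genes alone these shares were 25% and 29.3%.

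The difference of group means changed sign with 1 array left out for these genes, given with their lowest and highest values: Akr1c18 (-0.17 to 2.31), Axin2 (-0.23 to 1.5), Bgn (-0.49 to 0.67), Cdkn2b (-0.63 to 0.18), Cldn7 (-0.65 to 0.31), Defb14 (-0.21 to 0.97), Esrp2 (-0.0246 to 0.37), Gabrp (-1.75 to 2.15), Hoxa9 (-0.76 to 1.33), Krt23 (-0.95 to 0.33), Krt8 (-0.59 to 0.10), Krtdap (-0.25 to 0.44), Lce1a1 (-3.02 to 0.62), Lce1c (-2.53 to 0.36), Lce1l (-2.01 to 0.18), Marveld3 (-0.0527 to 0.37), Pmel (-1.46 to 2.24), Sptlc3 (-0.045 to 0.77), Sting1 (-0.82 to 0.76), Timp1 (-1.02 to 1.42), Tyr (-0.80 to 1.31), Vim (-0.64 to 2.17), Wnt7a (-1.79 to 0.0837). The cause was not tested.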

Other observations

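Probe sets with no gene symbol in the annotation used here numbered 12146. Of these, 158 (1.3%) were higher and 21 (0.173%) were lower by at least 1.5-fold in both matched differences, and 173 passed that size with opposite signs. The corresponding shares of named genes were 0.0752% higher and 0.166% lower. The identity of these probe sets was not analysed here.

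Over all genes 38.5% were lower and 15.5% higher in both replicates. Of 20 genes of glutathione metabolism and the NRF2 response 12 (60%) were lower in both replicates and 5 higher, with medians of -0.18 and -0.02. Of 19 glycolysis and hypoxia genes 10 (52.6%) were higher in both and 4 lower, with medians of 0.08 and 0.02. Of 12 desmosome genes 6 were lower in both and 1 higher. Of 20 mesenchymal genes 11 had opposite signs, 7 were lower in both and 2 higher, and the contractile genes Tagln and Cnn1 among them had matched differences of -1.0 and -0.53, and of -1.59 and -0.25. Of 15 regulators of the epithelial to mesenchymal transition 6 were higher in both and 4 lower.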
